A study of Gossypium hirsutum with 6 samples.

Results

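DNA2 (Gh_A11G1285), PCNA (Gh_A10G0368) and RFC3 (Gh_A13G1407) are genes of the replication fork, and their expression was examined in ovules of upland cotton, *Gossypium hirsutum*. They are 3 of the 65894 genes of the expression table and 3 of the 20 genes that the study lists under DNA replication. The list had been selected on higher expression in the fiberless mutant in these same 6 libraries (a fold change of at least 2 and a q-value of at most 0.001). The difference between lines is therefore given for these genes as a description, without a test. Xuzhou142fl (*Xu142fl*), a fiberless mutant, had 3 libraries and was set against 3 libraries of Xuzhou142 wild type (Xu142), which bears fiber. No treatment is stated for either line. Both grew in the field, and each library pooled ovules of -3 and -1 DPA (days relative to anthesis) in shares that were not stated. How many plants gave each library was not stated either. The genetic background of the mutant and its fiberless state cannot be told apart in this design, because each line is 1 genotype.

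PCNA forms a ring that slides along DNA and holds the replicative polymerases and many repair factors on their template. The ring is opened and closed around DNA by the clamp loader RFC, a complex of several subunits of which RFC3 is a small one. DNA2, known best from yeast and human cells, is a nuclease and helicase that trims long single-stranded flaps while Okazaki fragments of the lagging strand are joined, and that resects DNA ends during repair. In plants as in other eukaryotes these genes are used mostly by dividing or endoreduplicating cells. In cotton ovules before anthesis, lint fiber initials arise from single epidermal cells that leave the division cycle, while the other ovule tissues go on dividing.

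The authors deposited expression as FPKM (fragments scaled by transcript length and by the mapped reads of the library), so levels can be set side by side between genes. The table holds no read counts, and the depth behind each value is unknown from it. Library sums ranged from 804997 to 844877 FPKM. In each line 1 library stood apart. Over the genes tested, the median absolute log2 difference was 0.29 and 0.37 between *Xu142fl* replicate 1 and the other *Xu142fl* libraries, against 0.17 between those 2. It was 0.27 and 0.23 between Xu142 replicate 2 and the other Xu142 libraries, against 0.14 between those 2. Across lines it was 0.29 between *Xu142fl* replicate 1 and Xu142 replicate 2, and 0.33 to 0.48 for every other pair. The line labels were checked with MML3, a MYB gene of fiber initiation. Gh_D12G1628 had 0.18, 0.37 and 0.28 FPKM in *Xu142fl* replicates 1 to 3, against 61.49, 54.55 and 51.83 FPKM in Xu142. The A12 gene, Gh_A12G1503, had 7.69 ± 0.693 FPKM in *Xu142fl* and 38.8 ± 4.91 FPKM in Xu142 (SD, n = 3 each). The study had reported both as lower in the mutant from these same libraries. The check therefore shows only that the columns carry the study's labels. Markers that define ovule tissue are not named for these IDs in the sources used here, so the tissue label was not checked. In whole ovules, more cells that express a gene and more RNA of it in each cell cannot be told apart.

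DNA2, the flap nuclease, had the lowest level of the trio and differed between lines by about as much as RFC3. It had 4.08, 4.05 and 3.59 FPKM in *Xu142fl* replicates 1 to 3, against 0.65, 0.78 and 0.86 FPKM in Xu142. The lines did not overlap, and the lowest *Xu142fl* library was 4.17 times as high as the highest Xu142 library. Mean expression was 3.91 ± 0.275 FPKM in *Xu142fl* and 0.763 ± 0.106 FPKM in Xu142 (SD, n = 3 each), a ratio of 5.12. On the scale of log2(FPKM + 0.1) the difference was 2.22 (SE 0.18). Of the 56395 genes tested (mean FPKM of 0.1 or more), 0.713% had a difference at least as large. The level of DNA2 lay above that of 42.5% of these genes in *Xu142fl* and of 16.4% in Xu142.

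RFC3, the clamp loader subunit, differed by almost as much at a higher level. It had 9.90, 12.82 and 15.43 FPKM in *Xu142fl* replicates 1 to 3, against 2.81, 2.29 and 2.98 FPKM in Xu142. The lines were again apart, with the lowest *Xu142fl* library 3.32 times as high as the highest Xu142 library, although the *Xu142fl* libraries were spread widely. The means were 12.7 ± 2.77 FPKM in *Xu142fl* and 2.69 ± 0.360 FPKM in Xu142 (SD, n = 3 each), a ratio of 4.72 and a log2 difference of 2.18 (SE 0.19). Of the genes tested, 0.747% had a log2 difference at least as large.

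PCNA, the sliding clamp, was the most abundant of the trio and differed by about the smallest amount that the study's limit on the fold change allows. The A10 gene had 22.75, 25.47 and 24.15 FPKM in *Xu142fl* replicates 1 to 3, against 12.03, 11.22 and 11.49 FPKM in Xu142. The values were tight within each line and did not overlap between lines. The means were 24.1 ± 1.36 FPKM in *Xu142fl* and 11.6 ± 0.412 FPKM in Xu142 (SD, n = 3 each), a ratio of 2.08 and a log2 difference of 1.05 (SE 0.09). A difference at least as large was found in 3.48% of the genes.

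**Figure D1:**
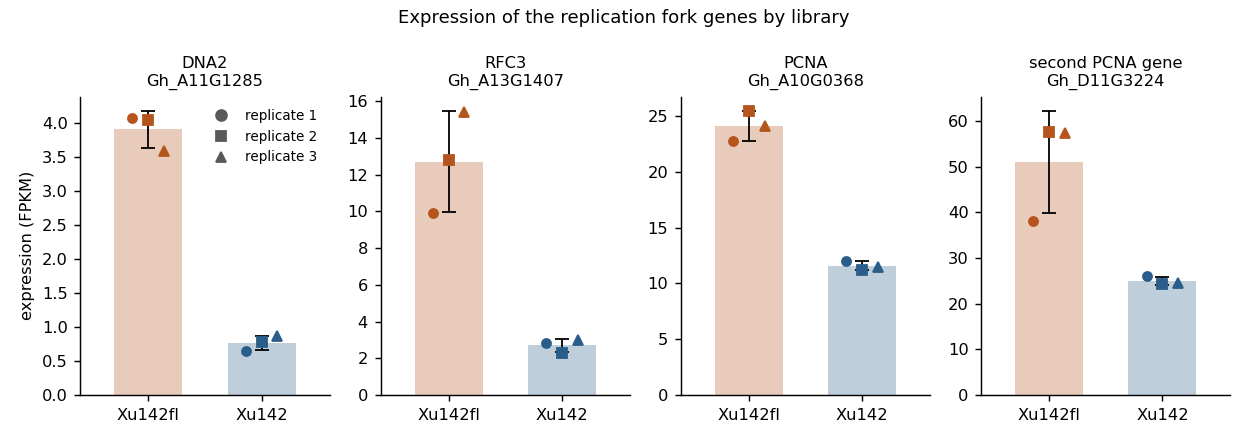
Expression in FPKM (y axis, from 0, a separate scale for each gene) of DNA2, RFC3, PCNA on A10 and the second PCNA gene on D11 in *Xu142fl* (left) and Xu142 (right). Bars are means, error bars are SDs of 3 libraries, and points are the libraries. In all 4 genes every *Xu142fl* library lies above every Xu142 library, and *Xu142fl* replicate 1 lies lowest of its line for RFC3, at 9.90 FPKM, and for both PCNA genes.

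In all 3 genes the lines did not overlap, and 15.6% of all genes tested were likewise higher in every *Xu142fl* library than in any Xu142 library. The genes had been chosen on this contrast, so nothing is read from this. When any 1 library was left out, the log2 differences lay between 2.12 and 2.30 for DNA2, 2.03 and 2.35 for RFC3 and 1.01 and 1.09 for PCNA. DNA2 and RFC3 were closer together than their standard errors, and RFC3 was the higher of them with a pseudocount of 1 (1.88, against 1.48 for DNA2), without *Xu142fl* replicate 1 (2.35, against 2.19) and without Xu142 replicate 1 (2.22, against 2.12). Without both libraries that stood apart, an alternative chosen after seeing the data, the log2 differences were 2.21 for DNA2, 2.24 for RFC3 and 1.07 for PCNA.

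The order of levels was the same in each of the 6 libraries, with PCNA above RFC3 and RFC3 above DNA2, and neighbours in this order were separated by more than their spread within a line. The distances between the levels differed between lines. Within a library, PCNA was 2.30, 1.99 and 1.57 times as high as RFC3 in *Xu142fl* replicates 1 to 3, against 4.28, 4.90 and 3.86 times in Xu142. The clamp thus exceeded the clamp loader subunit by 1.95 ± 0.368 times in *Xu142fl* and by 4.34 ± 0.525 times in Xu142 (SD, n = 3 each). PCNA exceeded DNA2 by 6.20 ± 0.581 times in *Xu142fl* and by 15.4 ± 2.73 times in Xu142, and for both ratios the lines did not overlap. RFC3 exceeded DNA2 by 3.30 ± 0.943 times in *Xu142fl* and by 3.58 ± 0.700 times in Xu142, and here the lines overlapped. These ratios rest on the same contrast that chose the genes, and they compare transcripts, not proteins.

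**Figure D2:**
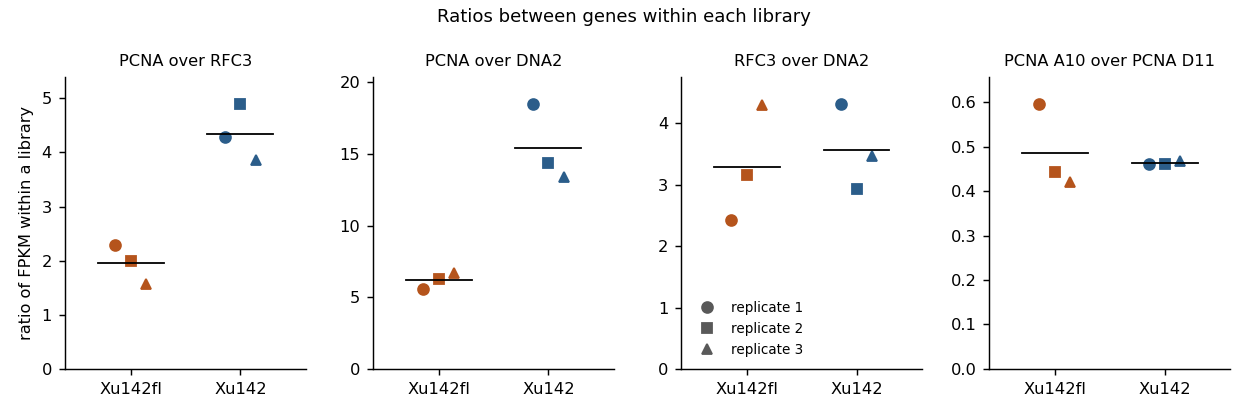
Ratio of the FPKM of a pair of genes within the same library (y axis, from 0, a separate scale for each pair) in *Xu142fl* (left) and Xu142 (right). Points are libraries and lines are means. PCNA over RFC3 lies between 1.57 and 2.30 in *Xu142fl* and between 3.86 and 4.90 in Xu142, and RFC3 over DNA2 overlaps between lines.

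The list holds a second PCNA gene, Gh_D11G3224, on D11. It was about as much higher in the mutant as the A10 gene, at a higher level. It had 38.12, 57.56 and 57.52 FPKM in *Xu142fl* replicates 1 to 3, against 26.07, 24.35 and 24.62 FPKM in Xu142. The means were 51.1 ± 11.2 FPKM in *Xu142fl* and 25.0 ± 0.925 FPKM in Xu142 (SD, n = 3 each), a ratio of 2.04. Together both genes gave 75.2 ± 12.4 FPKM in *Xu142fl* and 36.6 ± 1.33 FPKM in Xu142. The A10 gene held 37.4%, 30.7% and 29.6% of this sum in *Xu142fl* replicates 1 to 3, against 31.6%, 31.5% and 31.8% in Xu142. The split was thus nearly constant over the Xu142 libraries, and *Xu142fl* replicate 1 alone had a larger share from A10. RSEM, which gave the values, divides reads that fit several genes. How alike the PCNA genes are in sequence was not examined, so the split between them is uncertain. The same holds for any copies of DNA2, RFC3 and PCNA on the matching chromosomes of the other subgenome, which were not analysed here.

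The spread between libraries differed among the genes. DNA2 had an SD of 0.10 on the log2 scale in *Xu142fl* and 0.18 in Xu142. Genes of its level were taken as the 6213 within 0.5 log2 units of its mean over all 6 libraries. They had median SDs of 0.32 and 0.26. PCNA had SDs of 0.08 in *Xu142fl* and 0.05 in Xu142, against medians of 0.16 and 0.12 for genes of its level. RFC3 had SDs of 0.32 in *Xu142fl* and 0.19 in Xu142, against medians of 0.21 and 0.16. DNA2 and PCNA were therefore steadier than the median gene of their level in both lines, and RFC3 was more variable.

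The libraries that stood apart were also those with the lowest RFC3. It deviated from the mean of its line by -0.33 in *Xu142fl* replicate 1 and by -0.22 in Xu142 replicate 2 on the log2 scale. The other 17 replication genes had median deviations of -0.24 and -0.10 in these 2 libraries, where all genes tested had medians of -0.04 and -0.05. DNA2 deviated by 0.06 and 0.04 and PCNA by -0.08 and -0.04. RFC3, PCNA and the median of the other list genes therefore lay below their line mean in both libraries, and DNA2 did not. For scale, the median absolute deviation of all genes tested was 0.21 in *Xu142fl* replicate 1 and 0.16 in Xu142 replicate 2. Of DNA2, PCNA and RFC3, only RFC3 deviated by more than this. The mix of -3 and -1 DPA ovules in each library was not stated, and its part in this spread was not tested.

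**Figure D3:**
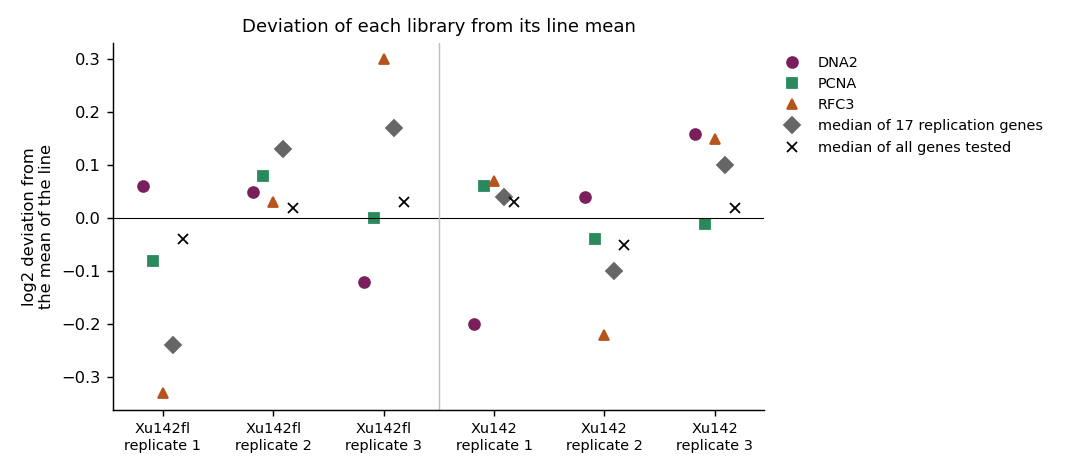
Deviation of each library from the mean of its line on the scale of log2(FPKM + 0.1) (y axis) for *Xu142fl* replicates 1 to 3 (left of the vertical line) and Xu142 replicates 1 to 3 (right). RFC3 and the median of the 17 other replication genes are lowest in *Xu142fl* replicate 1, at -0.33 and -0.24, and DNA2 is not, at 0.06.

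The other 17 genes of the list, chosen like the 3 on higher expression in these libraries, give the setting. Their log2 differences ranged from 0.99 to 1.35 with a median of 1.12, where the median over all genes tested was 0.01. All 17 were higher in every *Xu142fl* library than in any Xu142 library, where 15.6% of all genes tested were. Nothing is read from this, because the 17 were chosen on this contrast. DNA2 and RFC3, at 2.22 and 2.18, stood above every one of the 17. PCNA on A10 lay within their range.

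By role, the single-strand binding subunits RPA2A and RPA3B, which coat unwound DNA, differed by 1.13 to 1.35 in 4 genes. The highest was RPA3B on A09 (Gh_A09G1639), with 3.55 ± 0.194 FPKM in *Xu142fl* and 1.33 ± 0.104 FPKM in Xu142 (SD, n = 3 each). The POLE2 genes, for a subunit of the leading strand polymerase epsilon, differed by 1.29 (Gh_A03G0737) and 1.02 (Gh_D05G0040). The CDC6B genes, whose product helps load the helicase at origins, differed by 1.15 (Gh_D13G1931) and 1.01 (Gh_D10G0376). The 7 helicase genes, MCM2, MCM3, MCM6, CDC45 and GINS2 among them, which unwind DNA ahead of the fork, differed by 0.99 to 1.28. SSRP1 (Gh_D10G2252), a subunit of the histone chaperone FACT, differed by 1.01. Nearest to the study's limit of 2-fold, a log2 difference of 1, were PCNA on D11, SSRP1 and CDC6B on D10 (at most 1.01) just inside it and MCM2 on A03 (Gh_A03G1940, 0.99) just under it on this scale. Replication genes further under the limit are not named in the sources used here.

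**Figure D4:**
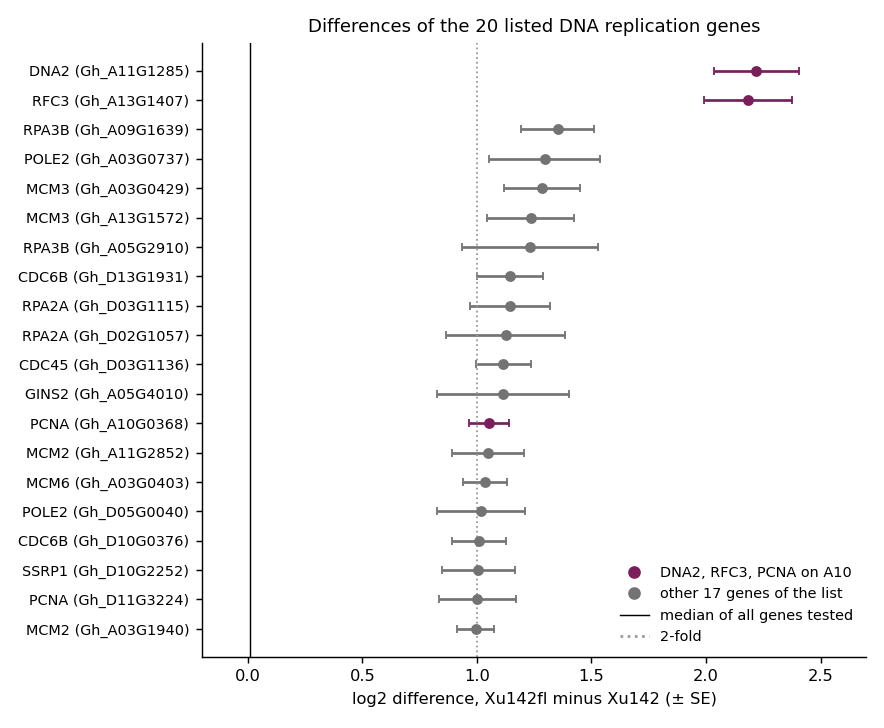
Log2 difference, *Xu142fl* minus Xu142, of the 20 listed DNA replication genes (x axis), with the gene names and IDs on the y axis. Points are differences and bars are standard errors from limma. DNA2 and RFC3 lie at 2.22 and 2.18, and the other 18 genes lie between 0.99 and 1.35, next to the 2-fold line that the list's rule used.

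For each gene, the 45563 other genes averaging 1 FPKM or more were ordered by Pearson's r of log2(FPKM + 0.1) over the 6 libraries. Each of the 3 genes is apart between lines. A high r with it therefore says mostly that a gene differs between lines and varies little within them. The count of genes with r of at least 0.95 was 1515 to 1719. The libraries are the same for every pair of genes. The gene second in likeness to PCNA was the MCM2 gene Gh_A03G1940 (r = 0.9995), with 28.70, 31.33 and 30.94 FPKM in *Xu142fl* replicates 1 to 3, against 15.61, 14.75 and 15.13 FPKM in Xu142. The other 4 of its 5 nearest genes have no name in the sources used here. For RFC3, CDC45 on D03 (Gh_D03G1136) ranked 20 (r = 0.997) and MCM6 on A03 (Gh_A03G0403) ranked 23 (r = 0.997). CDC45 had 74.92, 92.59 and 99.00 FPKM in *Xu142fl*, against 40.37, 38.82 and 42.84 FPKM in Xu142, with the lowest library of each line the same as for RFC3. The gene most like RFC3, the unnamed Gh_D03G1578 (r = 0.9997), had 19.12, 24.91 and 32.23 FPKM in *Xu142fl*, against 3.62, 2.76 and 3.72 FPKM in Xu142. No gene of the list was among the 5 nearest to DNA2, and the closest of the list was MCM3 on A03 (Gh_A03G0429), which ranked 173 (r = 0.990). Over the 17 list genes the median r was 0.943 with DNA2, 0.971 with PCNA and 0.981 with RFC3. The lowest was 0.815 with DNA2, 0.889 with PCNA and 0.915 with RFC3. The second PCNA gene, Gh_D11G3224, ranked only 1365 in likeness to PCNA on A10 (r = 0.955). Among the 3 genes, r was 0.984 for DNA2 with PCNA, 0.988 for PCNA with RFC3 and 0.969 for DNA2 with RFC3.

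The genes beside the 3 on their chromosomes were not used to choose them, and limma was used to test whether these also differed. The 5 nearest annotated genes on each side were taken by the gene number in the ID, and 28 of these 30 had enough expression to be tested. None passed limma's adjusted p of 0.05 together with 2-fold, where 6.14% of all genes were called in either direction. None passed at 0.001 with 2-fold either, where 423 of the 56395 genes tested did. Both shares are small for 28 genes, so nothing is read from the absence of calls. An unadjusted p under 0.05 was found in 8, where 29.9% of all genes had one, and 4 had an adjusted p of at most 0.05 at any fold, where 13.9% of all genes did. A share of 4 in 28 is near that of all genes, so nothing particular to these places is read from it. The 4 are under 2-fold, and they are named after their values were seen. Near RFC3, Gh_A13G1409 had 8.29 ± 1.28 FPKM in *Xu142fl* and 4.35 ± 0.0889 FPKM in Xu142 (SD, n = 3 each). Its log2 difference was 0.90 (limma adjusted p = 0.0094). Gh_A13G1408, which lies between RFC3 and Gh_A13G1409, did not pass (log2 difference 0.30, limma adjusted p = 0.52). The gene after Gh_A13G1409, Gh_A13G1410, had 37.9 ± 2.47 FPKM in *Xu142fl* and 22.4 ± 1.62 FPKM in Xu142. Its log2 difference was 0.76 (limma adjusted p = 0.0039). Near DNA2, Gh_A11G1287 had 8.65 ± 0.786 FPKM in *Xu142fl* and 15.7 ± 1.04 FPKM in Xu142 (limma adjusted p = 0.0042), and Gh_A11G1289 had 4.95 ± 0.139 FPKM in *Xu142fl* and 7.71 ± 0.912 FPKM in Xu142 (limma adjusted p = 0.021). The gene between them, Gh_A11G1288, had the largest difference of the neighbours, with 0.65, 0.63 and 1.05 FPKM in *Xu142fl* replicates 1 to 3, against 0.27, 0 and 0.26 FPKM in Xu142, and did not pass (log2 difference 1.85, limma adjusted p = 0.075). Of the 9 tested neighbours of DNA2, 5 had higher and 4 lower means on the log2 scale in *Xu142fl*. Of the 9 tested neighbours of RFC3, 8 had higher and 1 lower means, with a median log2 difference of 0.30. Of all genes tested, 50.8% had higher means. Only 2 of these RFC3 neighbours had an adjusted p of at most 0.05, and their shared direction was not tested. Around PCNA none of the 10 neighbours had an adjusted p of at most 0.05, and their log2 differences had a median of 0.09. Gh_A11G1289 did not pass at 0.05 without *Xu142fl* replicate 2 or 3 or Xu142 replicate 1 or 3 (adjusted p of 0.061 to 0.081) or with a replicate block (0.096), nor Gh_A13G1409 without *Xu142fl* replicate 2 (0.053). In fits with fewer libraries 2 genes passed the 2-fold limit as well, Gh_A13G1409 without *Xu142fl* replicate 3 (log2 difference 1.03, adjusted p = 0.011) and Gh_A13G1404, also near RFC3, without *Xu142fl* replicate 1 (-1.02, adjusted p = 0.047) and without both libraries that stood apart (-1.20, adjusted p = 0.025).

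**Figure D5:**
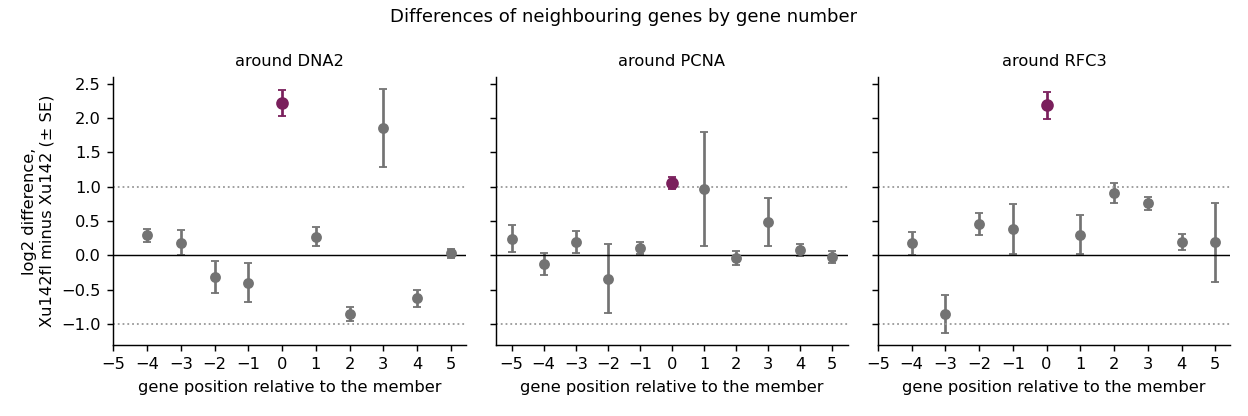
Log2 difference, *Xu142fl* minus Xu142 (y axis, bars are standard errors from limma), of DNA2, PCNA and RFC3 (position 0) and of the tested genes among the 5 nearest on each side by gene number (x axis). Dotted lines mark 2-fold. DNA2 and RFC3 lie above all their tested neighbours, and the neighbours of PCNA lie between -0.34 and 0.97. DNA2, PCNA and RFC3 were chosen on this contrast and the neighbours were not, so nothing is read from this order.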

How the data were processed

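RNA of pooled -3 and -1 DPA ovules was sequenced in 3 libraries of *Xu142fl* and 3 of Xu142. Filtered reads were placed by the authors on the TM-1 genome and quantified by RSEM, and the table was deposited as FPKM with 2 decimals. No scaling between libraries is stated. The submitters' processing notes name HISAT2 2.1.0 and RSEM. All 6 columns were matched to libraries by name, and at most 2.26% of the tested genes had identical values in a pair of libraries.

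FPKM were tested as log2(FPKM + 0.1) for genes averaging 0.1 FPKM or more, a scale that understates fold changes of low genes. limma 3.58.1 (R 4.3.3) was used with trend and Benjamini-Hochberg adjustment over 56395 genes. The study's DEGseq needs read counts and was not run. Figures and summaries were made with Python 3.11.15, pandas 2.3.3, numpy 2.4.6 and matplotlib 3.10.9.

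The 3 genes and the list of 20 came from the study. They, the neighbour and likeness rules and the tests were chosen with earlier results of these data known. Named genes were the list, the 5 most alike in pattern, the nearest neighbours and MML3. The rule named neighbours only where called, and none was, so those given were chosen after their values were seen. The table pairs IDs with no names, 0 IDs matched the RefSeq table of Gossypium_hirsutum_v2.1, and no sequences or coordinates are given. Alternatives were other pseudocounts, filters, scalings and limma options, annotated genes alone, a replicate block and libraries left out. The p-values set the difference between lines against the spread between libraries of a line, which limma moderates with values of the other genes.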

Additional observations from a re-analysis of the deposited data

How the results depend on the processing

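The log2 differences of DNA2, RFC3 and PCNA and the median of the other 17 replication genes were positive under every alternative run. With a pseudocount of 1 the difference fell to 1.48 for DNA2 and 1.88 for RFC3, since a larger pseudocount shrinks low values. Scaling between libraries moved the median of all genes by less than 0.1, and the differences stayed at 2.23 to 2.32 for DNA2, 2.19 to 2.22 for RFC3 and 1.05 to 1.08 for PCNA. The count of all genes called was 423 with an adjusted p limit of 0.001 and 3463 with one of 0.05. At 0.001 it was 37 (without Xu142 replicate 3) to 273 (without *Xu142fl* replicate 1) with 1 library left out, and 151 without both libraries that stood apart. With a replicate block it was 2 at 0.001. Pairing of the samples by replicate number is not stated. Deviations of same-numbered libraries correlated at -0.246, -0.232 and 0.138. These values cannot decide the question, because the deviations within a line are bound to cancel. The highest correlation across lines was 0.4, between *Xu142fl* replicate 1 and Xu142 replicate 2, the libraries that stood apart. What they share was not tested. Without read counts, no counting error can be given for the low values of DNA2 in Xu142.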
